A study of Mus musculus with 9 samples.

Results

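The genes described here are protein-coding genes whose RNA level in Suz12-degron embryonic stem cells departed from that of both other groups only after auxin had been washed out. They were chosen from the measured group means in CPM (a gene's count divided by its library total and scaled to 1e6). A gene was taken where its mean reached 2 CPM in at least one group, the ratio of the Auxin mean to the Mock mean lay between 0.8 and its reciprocal, and the Reintroduction mean was higher, or lower, than both of the others by a factor of 1.8 or more. Families set aside by name were Wnt, Kcn and Gbp genes, Hsp and Hist genes, and the immediate early Egr, Fos and Jun genes, of which 1 gene otherwise met the rule. This gave 118 genes, 97 above and 21 below, of 48440 genes in the count tables and of 11594 protein-coding genes outside those families that reached 2 CPM in some group. Of the 11594, 3371 (29.1%) had an Auxin to Mock ratio in the stated range. Because the rule used the means of all 3 groups, the values of these genes are given as a description, with no test of the differences that chose them.

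Polyadenylated RNA was sequenced from J1 mouse embryonic stem cells in which Suz12 carries an auxin-inducible degron (AID), a tag through which the plant hormone auxin triggers destruction of the protein. All 9 libraries came from Suz12-AID cells, Mock included, and all cells were grown on gelatin in serum medium with LIF and the 2i inhibitors PD0325901 (against MEK) and CHIR99021 (against GSK3). The groups were Mock, Auxin (50 µM for 96 h) and Reintroduction (spelled Re-introduction in the labels, 4.5 h of washout), with 3 biological replicates each. The labels do not say whether the line is a single clone or whether Mock and Auxin dishes received fresh medium when auxin was washed out, so the return of Suz12 and a change of medium cannot be told apart here.

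Polycomb repressive complex 2, of which Suz12 is a part, methylates histone H3 at silent developmental genes. The largest group among the genes above was the KRAB zinc-finger family. These proteins bind DNA through a row of zinc fingers, often at transposable elements, and their KRAB domain recruits the corepressor TRIM28 and the histone methyltransferase SETDB1. Their genes lie in clusters that grew by repeated duplication, so neighbours often share closely similar exons and promoters, and they are active in embryonic stem cells, where TRIM28 keeps many retrotransposons silent.

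Library totals ran from 4.43e+07 to 1.14e+08 counts, with both mates of a pair counted. Mitochondrial transcripts took 3.79% to 3.999% of counts in Mock and Auxin and 4.58% to 4.80% in Reintroduction. Suz12 transcripts were at 113 to 128 CPM in Mock, at 129 to 164 CPM in Auxin libraries and at 165 to 174.7 CPM in Reintroduction. The degron acts on the protein, so these levels check neither depletion nor return. All 10 embryonic stem cell markers reached 2 CPM, and their summed level was 4493 to 4568 CPM in Reintroduction, 6103 to 6566 in Auxin and 4766 to 4885 in Mock. Summed markers of fibroblasts stayed between 54.3 and 71.8 CPM with Twist2 at 0, neural markers between 90.6 and 115 CPM with Neurog2 and Dcx at 0, and markers of 2-cell-like cells at or below 1.12 CPM. Primitive endoderm markers summed to 54.1 to 57.3 CPM in Reintroduction, 63.7 to 66.5 in Auxin and 32.97 to 35.97 in Mock, and trophoblast markers to 176 to 179.7, 153 to 168 and 73.7 to 76.8 CPM. The part of these markers and of the mitochondrial share in the results below was not tested. Auxin replicate 2 stood apart from the other Auxin libraries in the zinc-finger genes, so their main counts are also given without it.

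In 95 of the 97 genes above, every Reintroduction library was higher than every Mock and Auxin library. In all 21 genes below, every Reintroduction library was lower. The same held for 14.3% (higher) and 12.3% (lower) of the 11594 protein-coding genes, but the rule used this contrast, so nothing is read from the excess. The exceptions were Bnip3 and Gm3604. Both fold changes reached 2 in 64 genes above and 9 below, and 2.5 in 7 above and 3 below. Just inside the limit of 1.8 stood Ap1s2 (1.81-fold), Dnmt3c (1.82-fold) and 6720489N17Rik (1.82-fold) above, with Ahsa2 (1.796-fold), Pdzrn3 (1.79-fold) and Creld2 (1.79-fold) just outside. Among genes below, Arhgef3 (1.81-fold), Vps26c (1.82-fold) and Rad9a (1.84-fold) were just inside, and Cabp7 (1.79-fold), Vpreb3 (1.79-fold) and Smoc1 (1.78-fold) just outside.

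The condition on the Auxin to Mock ratio does not mean that no member changed under auxin. CPM over library totals placed the median of the 11594 genes 0.27 higher (log2) in Auxin than in Mock, against 0.06 in a fit with TMM factors. In that fit (edgeR's quasi-likelihood test, Benjamini-Hochberg adjusted p under 0.05 over 20838 genes), 21 of the 97 genes above and 12 of the 21 below were called lower in Auxin against Mock, and none higher. Over all genes tested, 34.8% were called lower and 38.4% higher. Higher calls made up 52.4% of the calls, and 63.3% with library totals as the only scaling. The remaining 76 genes above and 9 below passed no threshold in that comparison.

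**Figure D1:**
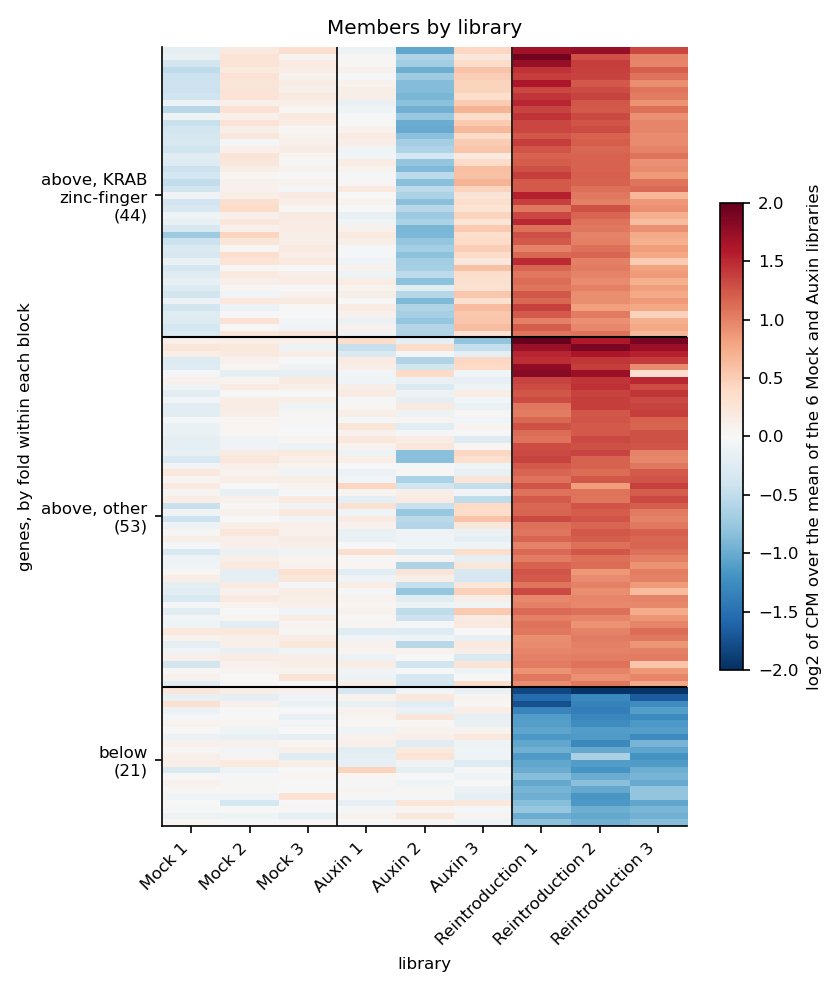
Each row is 1 of the 118 genes and each column 1 of the 9 libraries; the colour is the log2 of its CPM over the mean of the 6 Mock and Auxin libraries, in blocks of 44 KRAB zinc-finger genes above, 53 other genes above and 21 genes below. The Reintroduction columns are red in the upper blocks and blue in the lowest, and Auxin replicate 2 is the bluest Auxin column of the first block.

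Of the 97 genes above, 44 (45.4%) encoded KRAB zinc-finger proteins, and none of the 21 below did. The family was recognised from the longest open reading frame of GENCODE transcripts, by at least 3 classical zinc fingers and a match to at least 6 of 7 conserved KRAB positions. It made up 258 (2.23%) of the 11594 protein-coding genes and 103 (3.06%) of the 3371 genes in the ratio range. Of those 103, 44 (42.7%) met the rule for genes above, against 53 of 3268 (1.62%) other genes in the range. Zinc-finger genes without a KRAB match contributed 3 genes above, Prdm10, Zfhx2 and Zfp85. A KRAB match without 3 fingers was found in 2 genes above, which were not counted in the family.

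The 44 genes were not spread evenly along the genome. Clusters were taken as runs of at least 10 KRAB zinc-finger genes with gaps of at most 500 kb, which gave 8 clusters, and 30 of the 44 genes lay in 4 of them. A cluster at the distal end of chromosome 2, chr2:175010241-178078476 in the mm10 build (3.07 Mb), held 37 KRAB zinc-finger genes and 20 of the 44. A cluster on chromosome 4, chr4:145510759-147848366, held 19 such genes and 6 members. On chromosome 7 a cluster of 10 held 3 members, Zfp975, Gm17067 and Zfp936, and on chromosome 17 a cluster of 21 held 1, Zfp52. The 14 outside any cluster included Gm14124 and Zfp345 on chromosome 2, Zfp960 and Zfp97 on chromosome 17, and 3 genes on chromosome 5. Chromosome 2 held 30 of the 97 genes above (30.9%), against 7.96% of the 11594 protein-coding genes.

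Summed over its 37 KRAB zinc-finger genes, the chromosome 2 cluster stood at 141, 203 and 187 CPM (Mock), 191, 107 and 241 (Auxin) and 392, 378 and 333 (Reintroduction). All Reintroduction libraries were above all others, while the Auxin libraries spanned the whole range of Mock. The mean was 368 ± 31.1 CPM in Reintroduction, 179 ± 67.7 in Auxin and 177 ± 32.4 in Mock (SD, n = 3), which is 2.05-fold over Auxin and 2.08-fold over Mock. Gene by gene, 36 of the 37 had every Reintroduction library above every other library. Gm14443 was the exception, with Reintroduction at 21.8, 19.2 and 16.8 CPM and Auxin replicate 3 at 22.7 CPM.

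**Figure D2:**
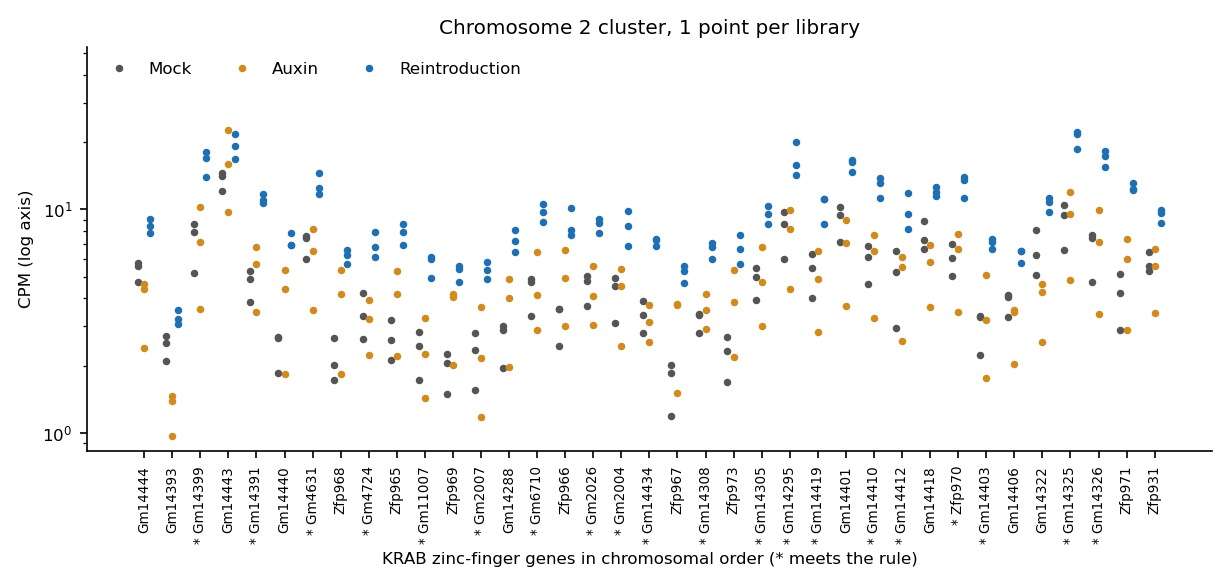
CPM on a log axis for the 37 KRAB zinc-finger genes of the chromosome 2 cluster in chromosomal order, 1 point per library in Mock, Auxin and Reintroduction; an asterisk marks the 20 genes that met the rule. Reintroduction points lie above the others in 36 of 37 genes.

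The members of this cluster had modest levels and similar fold changes. Gm14326 (chr2:177935993-177957297), the largest by fold, was at 4.72, 7.69 and 7.42 CPM (Mock replicates 1, 2 and 3), 7.13, 3.395 and 9.91 (Auxin) and 18.2, 17.4 and 15.4 (Reintroduction). Gm14325 (chr2:177831791-177840336) was at 6.57, 10.5 and 9.45 CPM (Mock), 9.56, 4.85 and 12.02 (Auxin) and 22.3, 21.8 and 18.5 (Reintroduction). For Gm11007 (chr2:175643978-175653860), a gene with 13 zinc fingers, the values were 1.73, 2.83 and 2.45 CPM (Mock), 2.26, 1.43 and 3.28 (Auxin) and 6.104, 5.98 and 4.94 (Reintroduction). In each of them the lowest Reintroduction library was above all 6 others, of which Auxin replicate 3 was the highest and Auxin replicate 2 the lowest. The smaller of the fold changes was 2.497 for Gm14326, 2.36 for Gm14325 and 2.43 for Gm11007. Over the 20 members it ran from 1.84 (Gm4631) to 2.497.

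Of the 17 KRAB zinc-finger genes of the chromosome 2 cluster that did not meet the rule, 9 had an Auxin to Mock ratio above the range, 6 had one below it, and 2 were inside it but short of 1.8-fold. Zfp967, Zfp968 and Zfp973 were among the 9, with ratios of 1.78, 1.78 and 1.70 to Mock under auxin and of 3.08, 2.91 and 2.98 after washout. Gm14393 and Gm14322 were among the 6, with 0.519 and 0.590 under auxin and 1.34 and 1.63 after washout. These genes were named after their values were seen. In Auxin against Mock, 1 of the 37 cluster genes was called higher and 6 lower (edgeR's quasi-likelihood test, adjusted p under 0.05), and Zfp967 (adjusted p = 0.0719), Zfp968 (0.0816) and Zfp973 (0.0846) were not called. Gm14393 was not called in Reintroduction against Mock (adjusted p = 0.098).

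Genes inside the chromosome 2 interval that did not meet the criteria of the family were compared with their KRAB zinc-finger neighbours. All 4 other protein-coding genes that reached 2 CPM had non-overlapping, higher Reintroduction libraries. Of these, 2210418O10Rik, Gm14435 and Gm14296 met the rule. Among the 7 genes that are not protein-coding and reached 2 CPM, 2 had such libraries, the unprocessed pseudogenes Gm14387 and Gm14411. The processed pseudogenes Gm14438, Gm14414 and Gm14323, also singled out after their values were seen, were lower in every Reintroduction library than in every other library. The summed level of all 42 non-coding genes of the interval was 310 ± 14.1 CPM in Reintroduction, 372 ± 48.1 in Auxin and 366 ± 16.8 in Mock (SD, n = 3).

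Promoters of these genes held a shared sequence. RefSeq promoters (250 bases before to 50 after the annotated start, GRCm38.p6) were found for 33 of the 44 KRAB zinc-finger members, 38 of the 53 other genes above and 13 of the 21 below, and only the 250 bases before the start were searched, on both strands. The 12-base word found in most of the 33 was GTCACTCAAGAC. It was picked for being common in these members, so its share among them, 20 of 33 (60.6%), is a description. It was in 38 of the 215 KRAB zinc-finger genes with a promoter (17.7%), in 39 of 9176 protein-coding genes (0.425%), and in 1 of 38 other genes above, 2210418O10Rik, which lies inside the chromosome 2 interval. The stretches below are shown because genes inside and outside the chromosome 2 cluster carry the same word. In each, a CCAAT box follows 7 bases on. Capitals mark the word and the CCAAT. They are RefSeq sequences of GRCm38.p6, given 5′ to 3′ on the strand of the gene.
Gm14326, chr2:177957359-177957426 (- strand): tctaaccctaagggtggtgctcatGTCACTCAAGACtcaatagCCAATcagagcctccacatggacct
Gm14434, chr2:176486821-176486888 (- strand): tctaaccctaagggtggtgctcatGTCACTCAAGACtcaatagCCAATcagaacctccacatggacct
Gm14403, chr2:177498099-177498166 (+ strand): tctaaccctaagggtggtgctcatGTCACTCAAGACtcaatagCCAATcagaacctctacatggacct
Gm14124, chr2:150257408-150257475 (+ strand): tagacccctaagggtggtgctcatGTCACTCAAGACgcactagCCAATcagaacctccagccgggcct
Gm6871, chr7:41560866-41560933 (- strand): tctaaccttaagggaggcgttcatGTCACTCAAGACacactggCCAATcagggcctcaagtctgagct
5430403G16Rik, chr5:109690888-109690955 (- strand): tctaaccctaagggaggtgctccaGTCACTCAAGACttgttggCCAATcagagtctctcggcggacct

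The first 3 genes lie in the chromosome 2 cluster and Gm14124 lies outside it on the same chromosome. Over these 68 bases, identity to Gm14326 was 98.5% for Gm14434, 97.1% for Gm14403, 85.3% for Gm14124, 79.4% for Gm6871 on chromosome 7 and 80.9% for 5430403G16Rik on chromosome 5. Zfp345 had the same 68 bases as Gm14124. CCAAT stood 7 bases after the end of the word in 38 of the 39 protein-coding genes that carried it. Of the 28 KRAB zinc-finger genes of the chromosome 2 cluster with a promoter, 27 carried the word, 16 of them members, and the other gene was called higher in Reintroduction against Auxin as well.

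Levels of genes with the word were described by the fit over all genes, in which 25.5% of genes were called higher and 25.5% lower in Reintroduction against Auxin. Of the 39 genes with the word, 37 were called higher and 1 lower (edgeR's quasi-likelihood test, adjusted p under 0.05), with a median log2 fold change of 1.10. Outside the chromosome 2 cluster, 9 of 11 KRAB zinc-finger genes with the word were called higher and 1 lower (median 0.96). Of the 176 there without it, 73 were called higher and 32 lower (median 0.36). Since 21 of the 39 are members, these counts are not independent of the rule. The letters CCAAT were found in 31 of the 33 promoters of KRAB zinc-finger members (93.9%), in 148 of 215 of the family (68.8%) and in 41.3% of 9176 protein-coding genes. The letters GGGCGG, the core of a GC box, were found in 4 of 33 (12.1%), 62 of 215 (28.8%) and 66.2%. Whether any factor binds these letters was not tested.

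The cluster on chromosome 4 had the highest level. Its 19 KRAB zinc-finger genes summed to 791, 938 and 950.3 CPM (Mock), 741, 489 and 975 (Auxin) and 2228, 1699 and 1269 (Reintroduction). All Reintroduction libraries were above all others, and their own spread was wide, with replicate 1 highest and replicate 3 lowest. Zfp990 (chr4:145510759-145539188) was the most abundant KRAB zinc-finger member, at 154, 175.01 and 181 CPM (Mock), 163, 104 and 194 (Auxin) and 474, 334 and 256 (Reintroduction). Zfp979 (chr4:147611937-147642513), the next, was at 103, 117 and 124 CPM (Mock), 98.1, 65.8 and 148 (Auxin) and 277, 245 and 180.3 (Reintroduction). Reintroduction was higher in each of the 3 libraries for both genes, 2.09-fold and 2.04-fold by the smaller ratio. With length and GC trends removed, their smaller log2 ratios went from 1.06 to 0.29 (Zfp990) and from 1.03 to 0.20 (Zfp979). Zfp986 (chr4:145868794-145899975) was at 6.01, 8.01 and 6.999 CPM (Mock), 6.77, 4.35 and 7.74 (Auxin) and 25.3, 16.3 and 13.3 (Reintroduction) and Zfp978 (chr4:147361303-147391004) at 13.2, 20.9 and 19.5 CPM (Mock), 18.4, 9.66 and 23.9 (Auxin) and 53.9, 41.2 and 33.4 (Reintroduction). The smaller ratios were 2.61 and 2.40, and Reintroduction libraries did not overlap the others. Rex2 and Zfp600 were the other members, at 96.2 and 78.8 CPM after washout, with smaller log2 ratios of 1.02 and 0.94, and of 0.19 and 0.07 after that step. Of the 13 that did not meet the rule, 9 had an Auxin to Mock ratio below 0.8. Zfp985 was lowest under auxin, at 0.448 of Mock, and was 1.47 times Mock after washout.

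Elsewhere, Zfp52 (chr17:21555046-21562066) had the largest fold among the zinc-finger members, at 4.57, 5.96 and 6.52 CPM (Mock), 4.85, 2.54 and 6.95 (Auxin) and 16.7, 17.5 and 13.2 (Reintroduction). Its smaller ratio was 2.78. Gm17067 (chr7:42705469-42727017) was at 18.04, 27.7 and 25.9 CPM (Mock), 23.7, 14.3 and 29.8 (Auxin) and 77.9, 60.4 and 45.9 (Reintroduction), a smaller ratio of 2.57. In both, Reintroduction libraries did not overlap the others, and the lowest value was that of Auxin replicate 2. Gm14124 (chr2:150257517-150270300) was at 10.7, 16.98 and 15.9 CPM (Mock), 15.2, 7.43 and 17.98 (Auxin) and 37.7, 35.9 and 28.6 (Reintroduction) (smaller ratio 2.35). Its order of libraries was that of Gm14326 in Auxin and Reintroduction. Of the 8 clusters, 5 had all Reintroduction sums above all Mock and Auxin sums, and 2 of them, on chromosomes 2 and 4, exceeded both groups by 1.8-fold. The cluster of 12 genes on chromosome 7 (chr7:29768552-30134950) did not, at 352 ± 11.9 CPM in Reintroduction, 364 ± 23.4 in Auxin and 294 ± 17.7 in Mock (SD, n = 3). Among the 5, the margin was small on chromosome 13, with Reintroduction replicate 3 at 175.6 CPM and Auxin replicate 3 at 173.8. It was also small at chr7:6286579-7209998, with Reintroduction replicate 1 at 71.3 CPM and Mock replicate 2 at 71.2. The chromosome 17 cluster of 21 was 2.84-fold over Mock, but its Reintroduction replicate 3 (371.8 CPM) lay below Auxin replicate 3 (374.2 CPM).

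**Figure D3:**
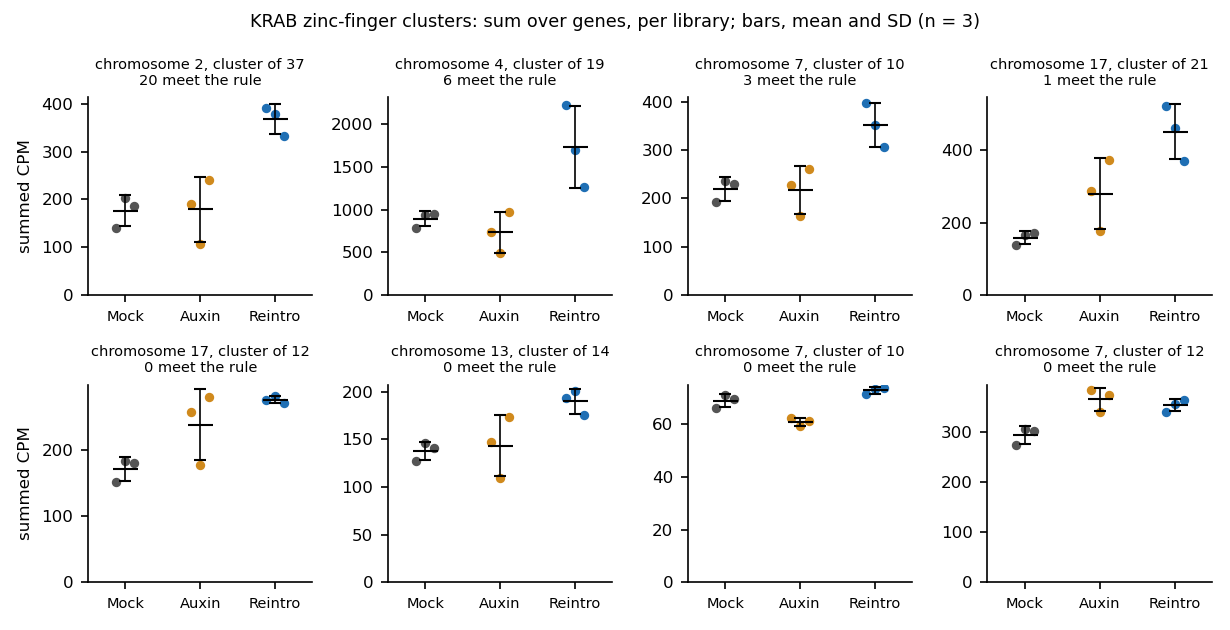
Summed CPM of the KRAB zinc-finger genes of each of the 8 clusters, 1 point per library, with the mean and SD of 3 libraries as black bars and each axis starting at 0. The Reintroduction points are above all others in 5 clusters, narrowly in those at chr13:67038594-67729119 and chr7:6286579-7209998.

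The Auxin libraries differed from each other for this family. Auxin replicate 2 was the lowest of the 3 Auxin libraries in all 44 KRAB zinc-finger members and the lowest of all 9 libraries in 43, against 29 and 23 of the 53 other genes above. Without it, 66 genes met the rule above, 56 of them among the 97, and 24 of the 66 were KRAB zinc-finger genes. The chromosome 2 cluster was then 0.77 higher (log2) in Reintroduction than in Auxin, against 1.04 with all libraries. Among Reintroduction libraries, replicate 1 was the highest in 57 of the 97 genes above and replicate 3 the lowest in 68.

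Base composition moved with these differences. The longest transcripts of the 44 KRAB zinc-finger members had a median GC content of 39.3%, against 44.6% in the other genes above, 54.8% in the genes below and 49.7% in the 11594. Log2 CPM, taken relative to the mean over libraries, changed per 10 points of GC content by 0.15 to 0.26 in Mock, by -0.09, 0.14 and -0.14 in Auxin replicates 1, 2 and 3, and by -0.18 to -0.13 in Reintroduction. Auxin replicate 2, the library with the lowest levels of the family, was the Auxin library whose slope had the sign of Mock. With per-library trends in exon length and GC content removed, which was added after the data were seen, 44 genes met the rule above, 21 of them among the 97, and 11 were KRAB zinc-finger genes. The removed trends also held each library's overall level. TMM scaling alone gave 76 genes above, 54 of them among the 97, and 34 were KRAB zinc-finger genes. Over 13 alternative scalings, trend corrections and omissions of 1 library, the smaller ratio moved by over 1.5 times in 19 of the 97 genes above and in none of the 21 below. Among these it was lowest with both trends removed for Gm17067 (log2 0.60, from 1.36), Gm14124 (0.63, from 1.23), Gm4631 (0.29, from 0.88), Gm14296 (0.34, from 1.06) and Ap1s2 (0.10, from 0.86), and with the length trend alone removed for Zfhx2 (-0.07, from 0.93).

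The family as a whole was then followed in the fit over all genes. Of the 258 KRAB zinc-finger genes, 134 were called higher and 36 lower in Reintroduction against Auxin (median log2 fold change 0.47, edgeR's quasi-likelihood test, adjusted p under 0.05), and 178 higher and 26 lower in Reintroduction against Mock (0.60). Over all genes, 25.5% were called higher and 25.5% lower in the former comparison and 34.7% and 33.4% in the latter. In Auxin against Mock, 81 (31.4%) were called higher and 50 lower (0.06), against 38.4% and 34.8% of all genes. With the length and GC trends removed, the counts were 134 higher and 40 lower against Auxin (median 0.35), and 104 higher and 66 lower against Mock (0.14). The 37 genes of the chromosome 2 cluster were called higher against Auxin in 36 cases without and with that step (medians 1.18 and 1.01). Against Mock they were called higher in 35 cases without it and 28 with it (0.97 and 0.59). The removed trends also held each library's overall level, which the TMM factors had already scaled. The values with that step therefore do not show the effect of length and GC alone. The 241 zinc-finger genes without a KRAB match had 58 higher and 79 lower in Reintroduction against Auxin (-0.03). Members are part of the family, so these counts hold what the rule chose.

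**Figure D4:**
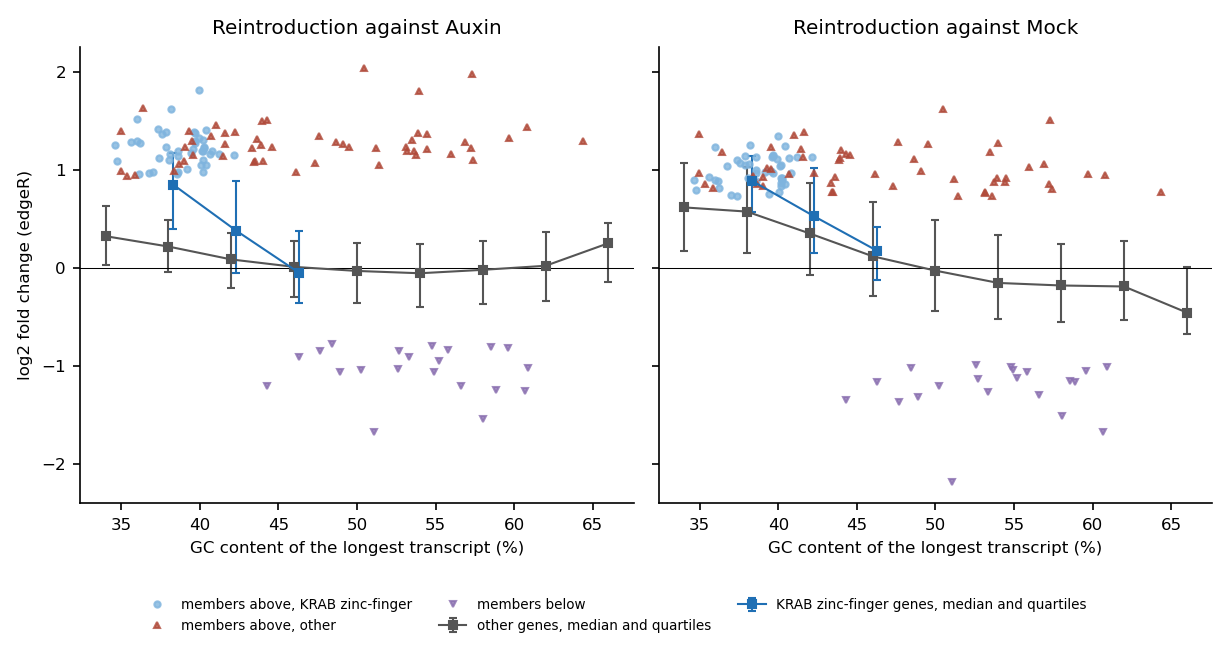
Log2 fold change from the fit over all genes against the GC content of the longest transcript, for Reintroduction against Auxin (left) and against Mock (right); squares with bars are medians and quartiles of protein-coding genes in bins of 4 points with at least 20 genes, and small symbols are members. KRAB zinc-finger genes between 36% and 40% GC had a median of 0.85 against Auxin, other genes of that bin 0.22, and the family's median was near 0 in the bin from 44% to 48%. The bins include the members.

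At matched GC content the family's median was above that of other genes in the lower bins. The bins include the members, so these medians are not independent of the rule. Between 36% and 40% GC, the median log2 fold change of Reintroduction against Auxin was 0.85 in 97 KRAB zinc-finger genes and 0.22 in 536 other genes. From 44% to 48% it was -0.05 in 31 and 0.01 in 2305. Against Mock the lowest of these bins gave 0.89 and 0.58. Genes with low GC content were therefore higher in Reintroduction than in Mock in general, and the part of base composition in the family's difference from Mock was not tested beyond these values. KRAB zinc-finger genes of 1 cluster share exon sequence, so a read that fits several copies can be lost or assigned to the wrong copy, and the levels of single copies are uncertain.

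Genes of the silencing machinery used by KRAB proteins were looked up as well, and none of 12 met the rule. Trim28, the corepressor itself, was at 1117 ± 13.1 CPM in Reintroduction, 938 ± 56.8 in Auxin and 1767 ± 77.9 in Mock (SD, n = 3). Setdb1, the methyltransferase, was at 223 ± 2.95, 158 ± 3.08 and 198 ± 8.59 CPM. Uhrf1, which guides maintenance DNA methylation, was at 228 ± 3.99, 141 ± 11.3 and 485 ± 0.627 CPM. In all 3 genes the Auxin libraries lay below every Mock library. Of the other genes looked up, Smarcad1, Morc3 and Cbx5 had Auxin to Mock ratios of 1.12, 1.08 and 0.981. The rest ran from 0.467 (Atf7ip) to 0.678 (Cbx1).

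The 53 other genes above fell into small groups by known role. Roles were assigned after the list was seen, and some genes are named for their role after their values were seen. One group held 8 genes of sterol and fatty acid metabolism. Stard4 (chr18:33199355-33213862), which carries cholesterol between membranes, was at 56.6, 65.2 and 64.7 CPM (Mock), 58.03, 51.4 and 56.4 (Auxin) and 145.2, 153 and 147 (Reintroduction). Hsd17b7, an enzyme of cholesterol synthesis, was at 26.8, 30.1 and 29.5 CPM (Mock), 31.2, 29.03 and 29.5 (Auxin) and 63.6, 68.8 and 70.7 (Reintroduction), and Aacs, which makes acetoacetyl-CoA for lipid synthesis, at 26.9, 28.4 and 27.9 CPM (Mock), 27.2, 28.7 and 26.5 (Auxin) and 61.0, 66.1 and 62.8 (Reintroduction). The 3 Reintroduction libraries agreed closely in each of these and lay more than 2-fold above every other library. Stard4 was 2.68-fold over Auxin and 2.39-fold over Mock, Hsd17b7 2.27-fold and 2.35-fold, and Aacs 2.31-fold and 2.28-fold.

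Elovl6 (chr3:129532355-129638495), an elongase of fatty acids and among the most abundant genes above, was at 84.6, 95.4 and 98.9 CPM (Mock), 131, 84.2 and 133 (Auxin) and 230.3, 248 and 225 (Reintroduction). Its Reintroduction libraries were above all others, and Auxin replicates 1 and 3 were above Mock while replicate 2 was not. Acsl4, which activates polyunsaturated fatty acids, reached 93.6 ± 3.33 CPM after washout from 42.0 ± 11.6 CPM in Auxin and 44.9 ± 3.77 CPM in Mock (SD, n = 3). Its smaller log2 ratio of 1.06 was 0.36 with length and GC trends removed. Pank3, which starts coenzyme A synthesis, reached 137 ± 5.38 CPM from 65.3 ± 18.8 and 53.5 ± 8.79 CPM. Lpl, lipoprotein lipase, reached 55.6 ± 2.22 CPM from 27.6 ± 5.44 and 29.6 ± 2.04 CPM. With length and GC trends removed, the smaller log2 ratio was 0.56 for Pank3, from 1.07, and 0.36 for Lpl, from 0.91. Lipg (chr18:74939322-74961263), endothelial lipase, had the largest fold of the genes above. It had low levels, at 0.641, 0.655 and 0.6398 CPM (Mock), 0.771, 0.527 and 0.347 (Auxin) and 2.44, 1.804 and 2.22 (Reintroduction). It was 3.93-fold over Auxin and 3.34-fold over Mock, and its counts were between 22 and 73 in the 6 other libraries and between 80 and 192 after washout.

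The wider sterol response list also differed under auxin. Of 13 listed sterol response genes, 13 were called lower in Auxin against Mock and 13 higher in Reintroduction against Auxin (edgeR's quasi-likelihood test, adjusted p under 0.05; background 25.5% higher), with medians of -1.35 and 2.30. Stard4 was the only member on that list. Idi1 changed by 2.90 ± 0.05 (log2, SE; adjusted p = 1.1e-10) and Insig1 by 2.62 ± 0.05 (adjusted p = 1.61e-10) in Reintroduction against Auxin, with -2.46 and -2.24 in Auxin against Mock. The letters TCACNCCAC, a form of the sterol regulatory element, were in none of the 38 promoters of other genes above and in 1.22% of 9176 promoters. At that share few matches would be found in 38 promoters, so nothing is read from their absence. Promoter entries were found for 5 of the 8 lipid genes, but not for Stard4, Lpl and Lipg.

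Developmental regulators formed a second group. Eomes (chr9:118478212-118486132), a T-box factor of mesoderm and trophoblast, was at 32.5, 32.2 and 33.4 CPM (Mock), 27.3, 28.4 and 26.5 (Auxin) and 67.1, 69.6 and 66.3 (Reintroduction). Smad3, which relays TGF-beta, activin and Nodal signals, was at 16.4, 17.02 and 16.8 CPM (Mock), 14.1, 15.5 and 12.5 (Auxin) and 30.8, 31.2 and 31.6 (Reintroduction), and Smad6, an inhibitor of BMP signals that lies 195 kb from Smad3 on chromosome 9, at 2.07, 2.01 and 2.17 CPM (Mock), 1.66, 2.13 and 1.34 (Auxin) and 4.45, 3.99 and 4.72 (Reintroduction). Reintroduction libraries did not overlap the others in any of the 3 genes, and the Auxin mean was the lowest in each. For Smad6, Mock and Auxin libraries overlapped. In the fit over all genes Smad6 was called lower in Auxin against Mock (log2 fold change -0.49, edgeR's quasi-likelihood test, adjusted p = 0.0166). Eomes was 2.47-fold over Auxin and 2.07-fold over Mock. It stands on the mesoderm and trophoblast marker lists. The summed level of the 10 mesoderm markers, Eomes included, was 71.9 to 75.2 CPM in Reintroduction, 33.6 to 35.6 in Auxin and 37.2 to 38.7 in Mock, and Eomes alone made 66.3 to 69.6 CPM of the first.

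Fst, follistatin, which binds activin outside the cell, was the member of this group among the genes below. It was at 6.45, 6.997 and 6.99 CPM (Mock), 7.401, 6.39 and 7.69 (Auxin) and 2.78, 2.68 and 3.26 (Reintroduction). The highest Reintroduction library lay well below the lowest of the others. The transcription factors Nfib and Vgll3 were above, by 2.00-fold and 2.12-fold as the smaller ratio. With length and GC trends removed, the smaller log2 ratio of Nfib was 0.04, from 1.00. Fgf10, a growth factor of branching organs, was at 16.4 ± 0.572 CPM after washout, 7.20 ± 1.15 CPM in Auxin and 6.83 ± 0.394 CPM in Mock (SD, n = 3). Of 14 TGF-beta and BMP targets listed, Smad6 among them, 3 were called higher and 5 lower in Reintroduction against Auxin (edgeR's quasi-likelihood test, adjusted p under 0.05; background 50.9% called).

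A pair of neighbouring genes for de novo DNA methyltransferases was above. Dnmt3b (chr2:153649450-153687730) was at 51.5, 52.4 and 54.4 CPM (Mock), 46.5, 46.04 and 43.6 (Auxin) and 93.9, 101 and 102 (Reintroduction), and Dnmt3c (chr2:153696652-153729905), its rodent duplicate 8.92 kb away that methylates retrotransposons in male germ cells, at 1.72, 1.64 and 1.93 CPM (Mock), 1.52, 1.303 and 1.64 (Auxin) and 3.37, 3.07 and 3.19 (Reintroduction). Their Auxin means were below Mock and Reintroduction was above both, by 1.87-fold and 1.82-fold as the smaller ratio. The copies are similar in sequence, so some reads of one could have been counted for the other. Atrx (chrX:105797615-105929403), a chromatin remodeller of heterochromatin and the most abundant member, was at 135, 194 and 183 CPM (Mock), 182, 93.6 and 209.9 (Auxin) and 424, 375 and 325 (Reintroduction). Its smaller log2 ratio was 1.14, but 0.04 with the per-library trend in exon length removed and -0.24 with trends in length and GC content removed, so its place among the genes above depended on that step. Mum1l1, a gene with a PWWP domain, was at 18.0 ± 0.491 CPM, from 6.95 ± 2.31 CPM in Auxin and 6.43 ± 0.786 CPM in Mock (SD, n = 3).

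Signalling genes were the largest group by role, with 11 above and 3 below. Trib1 (chr15:59648350-59656550), a pseudokinase that marks C/EBP factors for degradation, was at 6.98, 7.2003 and 6.96 CPM (Mock), 5.22, 6.17 and 5.53 (Auxin) and 18.2, 19.5 and 18.6 (Reintroduction). It was 3.33-fold over Auxin and 2.66-fold over Mock. Lpar6, a receptor for lysophosphatidic acid inside an intron of Rb1, was at 2.39, 2.36 and 2.53 CPM (Mock), 2.12, 2.04 and 2.001 (Auxin) and 5.697, 6.02 and 6.37 (Reintroduction), and Lpar1, another receptor for the same lipid, was at 40.6 ± 0.447 CPM from 21.8 ± 0.530 in Auxin and 19.1 ± 0.520 in Mock (SD, n = 3). Lpar6 shares exon bases with another gene, so its count may hold reads of Rb1, and its smaller log2 ratio was 1.31, or 0.43 with length and GC trends removed. Pik3r3, a regulatory subunit of PI3 kinase, was at 14.9, 17.6 and 16.9 CPM (Mock), 17.1, 12.9 and 14.8 (Auxin) and 39.04, 43.3 and 38.9 (Reintroduction). In all of these the lowest Reintroduction library was above the highest of the others.

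Genes of vesicles and the endoplasmic reticulum followed. Derl3 (chr10:75893398-75895941), which helps to extract misfolded proteins from the endoplasmic reticulum, was at 1.42, 1.399 and 1.12 CPM (Mock), 0.876, 1.55 and 0.867 (Auxin) and 4.01, 4.44 and 3.94 (Reintroduction), the second largest fold above. Its smaller ratio was 3.14. Ston2, an adaptor of endocytosis at synapses, was at 14.03, 16.4 and 16.5 CPM (Mock), 18.4, 15.4 and 18.2 (Auxin) and 38.9, 41.9 and 44.3 (Reintroduction). Fut9, a fucosyltransferase that makes the stem cell antigen SSEA1, was at 11.7, 14.3 and 13.4 CPM (Mock), 15.3, 10.9 and 18.3 (Auxin) and 47.97, 36.4 and 26.9 (Reintroduction). For Fut9 the Reintroduction libraries spread more than for the others, with replicate 1 highest, and the lowest was still above Auxin replicate 3. Its smaller log2 ratio was 1.32, and 0.09 with length and GC trends removed.

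Ak4 (chr4:101419277-101466995), a mitochondrial adenylate kinase, was at 81.9, 87.5 and 85.2 CPM (Mock), 96.7, 108 and 94.5 (Auxin) and 228, 222 and 219.9 (Reintroduction), 2.24-fold over Auxin and 2.63-fold over Mock. Bnip3, a mitophagy receptor induced by low oxygen, was at 0.904, 0.813 and 0.823 CPM (Mock), 0.889, 1.21 and 0.882 (Auxin) and 3.24, 3.02 and 1.16 (Reintroduction). Reintroduction replicate 3 of Bnip3, at 1.16 CPM, lay below Auxin replicate 2, at 1.21 CPM, so the groups overlapped. Both are known as hypoxia-responsive genes. Of 15 listed glucose and hypoxia genes, Bnip3 among them, 9 were called higher and 6 lower in Reintroduction against Auxin (edgeR's quasi-likelihood test, adjusted p under 0.05; background 25.5% higher, 25.5% lower), and the lower ones included Txnip (-1.82 ± 0.06, log2, SE; adjusted p = 3.69e-09), Ddit4 (-4.65 ± 0.18, adjusted p = 1.07e-08) and Vegfa (-2.51 ± 0.11, adjusted p = 1.71e-08).

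Cytoskeletal genes above included Vcl (chr14:20929433-21033673), vinculin of focal adhesions, at 39.97, 50.5 and 46.99 CPM (Mock), 50.4, 43.1 and 47.3 (Auxin) and 94.7, 109.6 and 121 (Reintroduction), and the kinase Rock2 at 41.8, 55.5 and 53.9 CPM (Mock), 62.7, 38.2 and 82.7 (Auxin) and 139, 133 and 111 (Reintroduction). Both were higher in every Reintroduction library. Tagln3 was at 6.12 ± 0.738 CPM after washout, from 2.61 ± 0.305 CPM in Auxin and 2.46 ± 0.320 CPM in Mock (SD, n = 3). Vcl stands on a list of 22 serum and SRF response genes, of which 20 were tested, and 13 were called higher and 4 lower in Reintroduction against Auxin (edgeR's quasi-likelihood test, adjusted p under 0.05; background 25.5% higher, 25.5% lower; median 0.76). In that list Atf3 changed by -4.78 ± 0.16 (log2, SE; adjusted p = 3.16e-09), Cnn2 by 2.18 ± 0.09 (adjusted p = 1.67e-08) and Nr4a1 by 1.03 ± 0.05 (adjusted p = 3.83e-08). Cryab, a small chaperone, was at 2.94 ± 0.417 CPM from 1.35 ± 0.300 and 1.48 ± 0.260 CPM. It is 1 of 15 listed co-chaperone and proteotoxic stress genes, of which 10 were called higher and 4 lower in that comparison, against the same background, with Dnaja1 (1.37 ± 0.05, adjusted p = 6.3e-09), Cacybp (1.30 ± 0.05, adjusted p = 6.73e-09) and Hmox1 (-1.39 ± 0.07, adjusted p = 4.78e-08) having the smallest adjusted p.

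**Figure D5:**
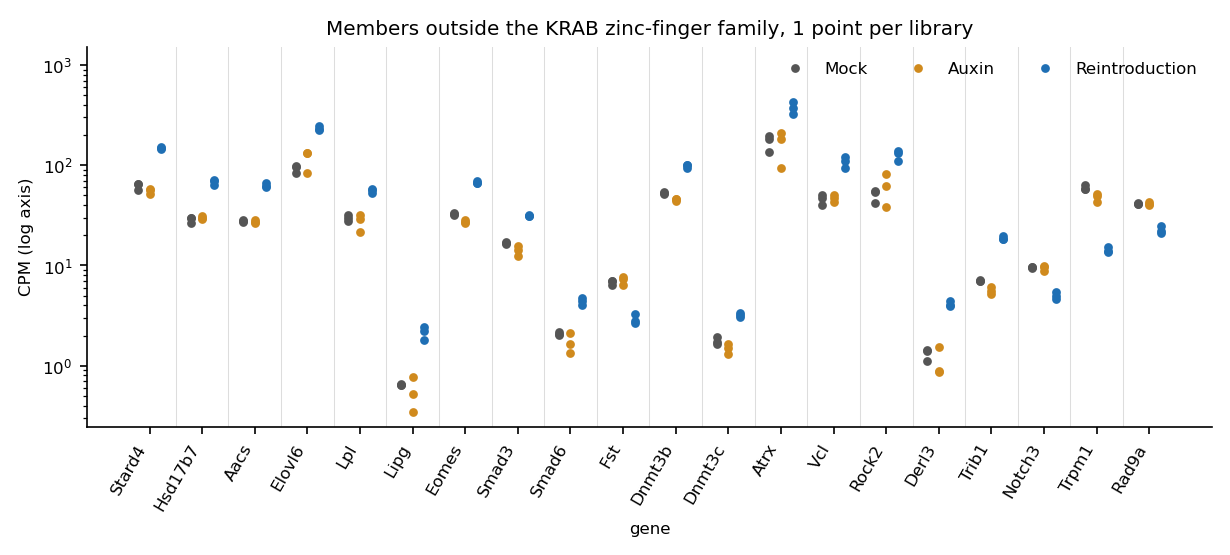
CPM on a log axis for 20 members outside the KRAB zinc-finger family, 1 point per library in Mock, Auxin and Reintroduction. Reintroduction points are highest in the lipid genes, Eomes, Smad3, Smad6, Dnmt3b, Dnmt3c, Atrx, Vcl, Rock2, Derl3 and Trib1, and lowest in Fst, Notch3, Trpm1 and Rad9a.

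The 21 genes below held no group as large. Trpm1 (chr7:64153835-64269775), a cation channel of melanocytes and retinal bipolar cells, had the largest difference, at 62.97, 58.5 and 57.3 CPM (Mock), 43.4, 51.6 and 49.4 (Auxin) and 15.2, 13.8 and 13.9 (Reintroduction). Its Reintroduction mean was 3.37-fold below Auxin and 4.17-fold below Mock. Auxin libraries were already under Mock, by 0.808 as a ratio of means.

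Ccdc92b was at 3.897, 3.81 and 4.11 CPM (Mock), 4.54, 4.99 and 4.44 (Auxin) and 1.48, 1.76 and 1.36 (Reintroduction), and Rasal1, an inhibitor of Ras signalling, at 3.57, 3.04 and 2.61 CPM (Mock), 2.602, 2.48 and 2.95 (Auxin) and 0.852, 1.13 and 1.21 (Reintroduction). Both were more than 2.5-fold below each other group. Ptgis, prostacyclin synthase, was at 3.96 ± 0.286 CPM after washout, from 9.65 ± 1.35 CPM in Auxin and 8.92 ± 0.469 CPM in Mock (SD, n = 3). Calca, which encodes calcitonin and CGRP, was at 3.27 ± 0.162 CPM from 7.20 ± 0.438 and 7.43 ± 0.354 CPM. Each of the 4 genes had its highest Reintroduction library below every other library.

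Genes of mitochondria and metabolism below were Afg1l, Cpt1c, Noxred1 and Ptgis. Afg1l, a mitochondrial ATPase, was at 12.3, 11.5 and 12.4 CPM (Mock), 11.7, 12.8 and 12.9 (Auxin) and 5.89, 5.64 and 5.71 (Reintroduction), with replicates within each group close together. Cpt1c, a carnitine palmitoyltransferase of neurons, was at 7.35 ± 0.358 CPM, from 13.9 ± 0.541 CPM in Auxin and 14.04 ± 0.337 CPM in Mock (SD, n = 3). Noxred1 was at 2.74 ± 0.0826 CPM from 5.22 ± 0.351 and 6.48 ± 0.183 CPM. Cpt1c shares exon bases with another gene.

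Trafficking genes below were Ap5z1, a subunit of the AP-5 adaptor, and Vps26c, a subunit of the retriever complex. Ap5z1 was at 26.3, 25.7 and 25.1 CPM (Mock), 30.3, 30.6 and 33.04 (Auxin) and 12.8, 12.99 and 11.8 (Reintroduction). Vps26c, with Trpm1 among the most abundant genes below, was at 48.2, 47.99 and 45.2 CPM (Mock), 54.2, 60.03 and 53.3 (Auxin) and 25.9, 25.4 and 26.4 (Reintroduction). Auxin was above Mock in both, and Reintroduction was below Mock, by 2.05-fold and 1.82-fold. Rad9a, a subunit of the 9-1-1 clamp of the DNA damage response, was at 40.6, 41.3 and 42.3 CPM (Mock), 40.9, 43.04 and 40.2 (Auxin) and 24.6, 20.97 and 21.99 (Reintroduction), and shares exon bases with Ppp1ca. Arhgef3 was at 14.6 ± 0.675 CPM, from 26.5 ± 1.02 CPM in Auxin and 27.2 ± 0.429 CPM in Mock (SD, n = 3).

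Lower after washout were also Tapbpl, a chaperone of MHC class I loading, at 2.85 ± 0.355 CPM from 5.72 ± 0.662 in Auxin and 6.31 ± 0.0937 in Mock, and Cradd, an adaptor of caspase-2 activation, at 6.66 ± 0.218 CPM from 13.2 ± 1.90 and 13.7 ± 0.778 (SD, n = 3). The remaining genes of the 15 largest differences were Mxra7, Plekha6 and Dnajc22, with Reintroduction means between 1.04 and 1.55 CPM and smaller ratios of 1.93, 1.90 and 1.89. Notch3, a Notch receptor, was at 9.63, 9.59 and 9.45 CPM (Mock), 9.85, 9.603 and 8.74 (Auxin) and 4.97, 4.65 and 5.46 (Reintroduction). In the fit over all genes Notch3 was called lower in Auxin against Mock (log2 fold change -0.23, edgeR's quasi-likelihood test, adjusted p = 0.021). Of 16 listed Notch pathway genes 13 were tested, and 3 were called higher and 4 lower in Reintroduction against Auxin, near the background (edgeR's quasi-likelihood test, adjusted p under 0.05; 50.9% of all genes called). Members below had a median of 11 exons and those above of 5, against 10 in all 11594 genes.

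Shared exon bases with another gene were less of a concern above, where 12 of 97 members had them, than below, where 7 of 21 did; the share in the 11594 genes was 32.1%. Of the genes named above, Gm6871, Zfp85, Zfhx2, Elovl6, Fgf10, Bnip3, Vcl, Trpm1, Ptgis, Plekha6 and Notch3 also share exon bases with another gene. Strand was not used in the counting, so reads of such partners cannot be told apart. Esf1, which acts in ribosome production and lies 480 kb from the member Flrt3 on chromosome 2, was at 44.8, 54.96 and 57.2 CPM (Mock), 50.5, 30.2 and 71.6 (Auxin) and 129, 98.1 and 79.9 (Reintroduction). Its smaller log2 ratio was 0.97, and 0.34 with length and GC trends removed.

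Outside the lists that hold a member, those most often called in Reintroduction against Auxin were the integrated stress response, where 12 of 12 genes were called lower (edgeR's quasi-likelihood test, adjusted p under 0.05; background 25.5% lower), and LIF and STAT3 targets, with 3 higher and 6 lower of 10. Trib3 changed by -4.60 ± 0.09 (log2, SE; adjusted p = 1.25e-10), Chac1 by -7.59 ± 0.18 (adjusted p = 3.99e-10) and Ddit3 by -3.77 ± 0.09 (adjusted p = 4.31e-10), while Klf5 changed by -1.35 ± 0.06 (adjusted p = 2.46e-08), Gbx2 by 1.56 ± 0.08 (adjusted p = 1.04e-07) and Klf4 by -0.69 ± 0.05 (adjusted p = 8.72e-07). None of these genes met the rule, and each was called changed in Auxin against Mock. Over all genes 25.5% were called higher and 25.5% lower, 50.9% in all. In G1/S genes 9 of 12 were called higher and none lower, in FOXO targets 1 higher and 9 lower of 14, in p53 targets none higher and 6 lower of 12, and in Polycomb developmental targets 3 higher and 8 lower of 20. Higher and lower calls were 6 and 3 of 14 in YAP and TEAD targets, 9 and 2 of 15 in ERK targets, 7 and 1 of 14 in beta-catenin targets, 3 and 8 of 17 in clock genes, 2 and 4 of 11 in NF-kB genes, 5 and 4 of 12 in interferon genes, 2 and 2 of 6 in metallothionein and zinc genes, 5 and 4 of 12 in G2/M genes and 4 and 3 of 12 in PRC2 subunits. The shares called in NF-kB genes, Polycomb developmental targets and PRC2 subunits were near that of all genes.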

How the data were processed

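Polyadenylated RNA of 9 libraries was measured as read counts per gene. The authors deposited 1 table of raw counts per library, made with featureCounts 2.0.6 on mm10 with each mate of a pair counted and no strand setting, per the file headers. Trim Galore 0.6.10, FastQC 0.12.1, Bowtie2 2.5.3 and SAMtools 1.20 are named in the submitters' processing notes, with no role given. Group and replicate came from the labels. They call the 3 libraries of a group biological replicates without saying whether cultures were separate, so p-values measure only the spread between these libraries.

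CPM was computed from the deposited counts and library totals, and the gene set from the group means. The counts were also fitted over 20838 genes with edgeR 4.0.16 in R 4.3.3 (TMM factors of 0.901 to 1.08, filterByExpr, group as the only term, quasi-likelihood test, Benjamini-Hochberg adjustment, threshold 0.05). On simulated counts with 200 genes changed 2-fold among 20838, it recovered 76.5% for Auxin against Mock (6.71% of calls false), 69% for Reintroduction against Auxin (8.61% false) and 72% for Reintroduction against Mock (5.88% false). In the measured counts 50.9% to 73.2% of genes were called. The simulated rates therefore do not describe the fit where so many genes differ. DESeq2 1.42.0 served as an alternative. Standard errors are those of the fit.

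The members, lists and motifs were chosen with earlier results of these data known. Named genes were the 15 farthest above and 15 farthest below by the smaller ratio, the 5 most abundant in each direction, members on a list, the 3 nearest to the limit on either side, and, in lists with more than 3 in 4 genes called, the 3 other genes with the smallest adjusted p in Reintroduction against Auxin. Others were named after their values were seen. One gene that the rule names is not reported here. Alternatives were other scalings, filters and limits, removal of length or GC trends, a replicate term and leaving out each library. Trend removal also took out each library's overall level.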

Additional observations from a re-analysis of the deposited data

How the results depend on the processing

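Of 232 alternative values for the counts and the cluster ratio, 219 stayed within 1.5 times the reported count or within the replicate spread, and 13 did not. The fold limit moved the counts to 194 above and 81 below at 1.5-fold, and to 7 above (3 KRAB zinc-finger genes) and 3 below at 2.5-fold. A minimum of 0.5 CPM gave 49 below. With the exon length trend removed 36 genes were below. With length and GC trends removed, an alternative chosen after seeing the data, 44 were above, 11 of them KRAB zinc-finger genes, the family had 53 higher calls in Auxin against Mock and 104 in Reintroduction against Mock, and the smaller log2 ratio of Atrx was -0.24. The removed trends also held each library's overall level, and in the fit the TMM factors scaled that level as well. These values therefore do not show the effect of length and GC alone, and the cause was not tested. Membership itself moved with scaling: TMM sizes gave 76 above (54 shared with the 97) and 23 below (10 shared with the 21), and DESeq2 factors 70 (45 shared) and 28 (10 shared). Across 13 settings, 95 of 97 genes above and 21 of 21 below kept the sign of their smaller log2 ratio, the exceptions being Atrx and Zfhx2. Leaving out 1 library at a time gave 66 to 117 genes above, 17 to 27 below, 24 to 46 KRAB zinc-finger genes above, and a log2 ratio of 0.77 to 1.31 for the chromosome 2 cluster. Family calls higher were then 66 to 123 in Auxin against Mock, 105 to 159 in Reintroduction against Auxin and 140 to 190 in Reintroduction against Mock. Without Auxin replicate 2, 24 KRAB zinc-finger genes were above and 123 were called higher in Auxin against Mock. A fit with the replicate number as a block called 14808, 9829 and 13639 genes in Auxin against Mock, Reintroduction against Auxin and Reintroduction against Mock, and DESeq2's Wald test 15099, 10469 and 14044. Same-numbered libraries deviated together in 2 of 9 pairs (correlation over 0.1), and 3 libraries correlated best with their own number, so the numbers were not taken as pairs. Members near 2 CPM rest on few counts, and differences between near-identical copies were not resolved at this counting.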
